A study of Rattus with 9 samples.

Results

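The S100 proteins are small calcium-binding proteins, and some of them act as alarmins, which are cell constituents that signal danger once they leave a damaged or activated cell. Their RNA was followed here for 6 genes of the family in single cells of the rat extrahepatic bile duct, the tube that carries bile from the liver. The members were found by their symbols among the 23836 symbols of the deposited tables. They are S100a4 (ENSRNOG00000011821), S100a6 (ENSRNOG00000011647), S100a8 (ENSRNOG00000011557), S100a9 (ENSRNOG00000011483), S100a10 (ENSRNOG00000023226) and S100a11 (ENSRNOG00000010105), and each had 1 feature. Bile ducts of 9 samples fall into 3 groups. The sham group has 3 samples without transplantation. The ctrl group has 3 samples taken 1, 3 and 7 days after rat liver transplantation (LT) with ischemic injury of the graft. The treat group has 3 samples of the same days from rats with LT in which ligation of the splenic and gastroduodenal arteries raised the arterial flow to the liver. So every ctrl and treat sample carries the transplantation, and each day of each arm is 1 sample of 2 or 3 libraries. The study's methods name Sprague-Dawley rats for sham and ctrl. Nothing in the labels ties the libraries to separate rats, so p-values measure only the spread between these samples, which may be technical in part.

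S100A8 and S100A9 pair to form calprotectin, which is stored in large amounts in the cytoplasm of neutrophils and, to a lesser degree, of monocytes. Released calprotectin is sensed through Toll-like receptor 4 and its adaptor Myd88, and through Ager, the receptor for advanced glycation end products. S100A4 binds the heavy chain of non-muscle myosin (Myh9) and is known from motile fibroblasts and leukocytes. S100A6, or calcyclin, binds the calcyclin-binding protein Cacybp. S100A10 pairs with annexin A2 (Anxa2) at the plasma membrane, where the complex binds the plasminogen activator Plat. S100A11 pairs with annexin A1 (Anxa1) and takes part in membrane repair. In bile duct, biliary epithelial cells (BEC) meet bile salts and ischemia directly, and leukocytes enter the wall from the blood.

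The 20 libraries held 14398295 to 109245177 unique molecular identifiers (UMIs), each of which stands for 1 captured RNA molecule, and 139505 barcodes were kept as cells. The cells formed 37 clusters. Markers of known cell types named 29 of them, so that a class is written as neutrophil-like or BEC-like, and clusters whose markers were few or mixed keep the names of their leading genes. The S100 genes and their partners were left out of the clustering. All levels are CPM, the count of a gene per 1000000 UMIs of the summed cells, and a class is given only for samples with at least 20 of its cells. Values of sham are given in the order of samples 1 to 3, and those of ctrl and treat in the order of days 1, 3 and 7. Barcodes of up to 100 UMIs hold no cell and show the RNA that floats free in the suspension, called free RNA from here on. From genes of other cell types, free RNA made up at most 0.445 to 32% of the UMIs of a class in a sample, with a median limit of 2.19% over 158 sums. Where its profile is subtracted below, this upper limit is the amount taken out, so the subtraction can remove too much. In ctrl day 3, libraries 2 and 3 lost 2472 of 2914 and 3961 of 4307 barcodes to the limit on hemoglobin, so this sample rests mainly on library 1. With library 1 alone, 23 results for a member in all cells or in a class kept their direction and their side of the threshold. These do not include the calls of S100a8 and S100a9 in classes other than monocyte-like cells. No pair of libraries shared more than 1.19% of the barcodes of the smaller.

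The 6 genes did not all have the same highest class in the duct, though some shared theirs. S100a8 and S100a9 were highest in neutrophil-like cells, at 54882 ± 31182 CPM (SD, n = 8) and 104639 ± 51732 CPM (SD, n = 8), followed by monocyte-like cells at 2472 ± 3619 CPM (SD, n = 9) and 2469 ± 3938 CPM (SD, n = 9). That step was larger than its spread over samples, whereas below the monocyte-like cells most neighbours in the order lay within their spread. Values in plasma cell-like and Schwann cell-like cells were carried by single cells: 868 of 881 S100a8 UMIs of plasma cell-like cells in treat day 1 and 982 of 994 of Schwann cell-like cells in ctrl day 1 lay in 1 cell. S100a6 was highest where keratins and Epcam were found. It reached 46231 ± 6048 CPM (SD, n = 9) in a cluster led by Wfdc21 and Lypd8, 20808 ± 6286 CPM (SD, n = 9) in a cluster led by the antimicrobial lectins Reg3b and Reg3g, and 16209.5 ± 4797 CPM (SD, n = 9) in BEC-like cells. Both clusters held 9 of the 10 BEC markers and also leading genes of goblet cells, so they carry no cell type name. The Wfdc21/Lypd8 cluster stood above the next class beyond the spread, and the Reg3b/Reg3g cluster and BEC-like cells did not differ beyond theirs. S100a11 had the same first 3 classes, at 8833 ± 604 CPM (SD, n = 9), 5138 ± 1010.4 CPM (SD, n = 9) and 4628 ± 716 CPM (SD, n = 9), and was next highest in neutrophil-like cells at 3834 ± 851 CPM (SD, n = 8). S100a4 was highest in Schwann cell-like cells at 3401 ± 2241 CPM (SD, n = 7), in monocyte-like cells at 3226 ± 794 CPM (SD, n = 9) and in a cluster led by Gata3 and Il2ra at 2941 ± 599.8 CPM (SD, n = 9), which did not differ beyond their spread. It was lowest in B cell-like cells, at 23.3 ± 11.2 CPM (SD, n = 8). S100a10 was highest in Schwann cell-like cells at 4712 ± 2079 CPM (SD, n = 7) and in the Wfdc21/Lypd8 cluster at 4522 ± 1592 CPM (SD, n = 9), again within the spread, and lowest in neutrophil-like cells at 128 ± 43.2 CPM (SD, n = 8). When UMIs were pooled over samples, the first class became the Gata3/Il2ra cluster for S100a4 and the Wfdc21/Lypd8 cluster for S100a10. These levels are a description of clusters made from the same cells, without a test.

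**Figure D1:**
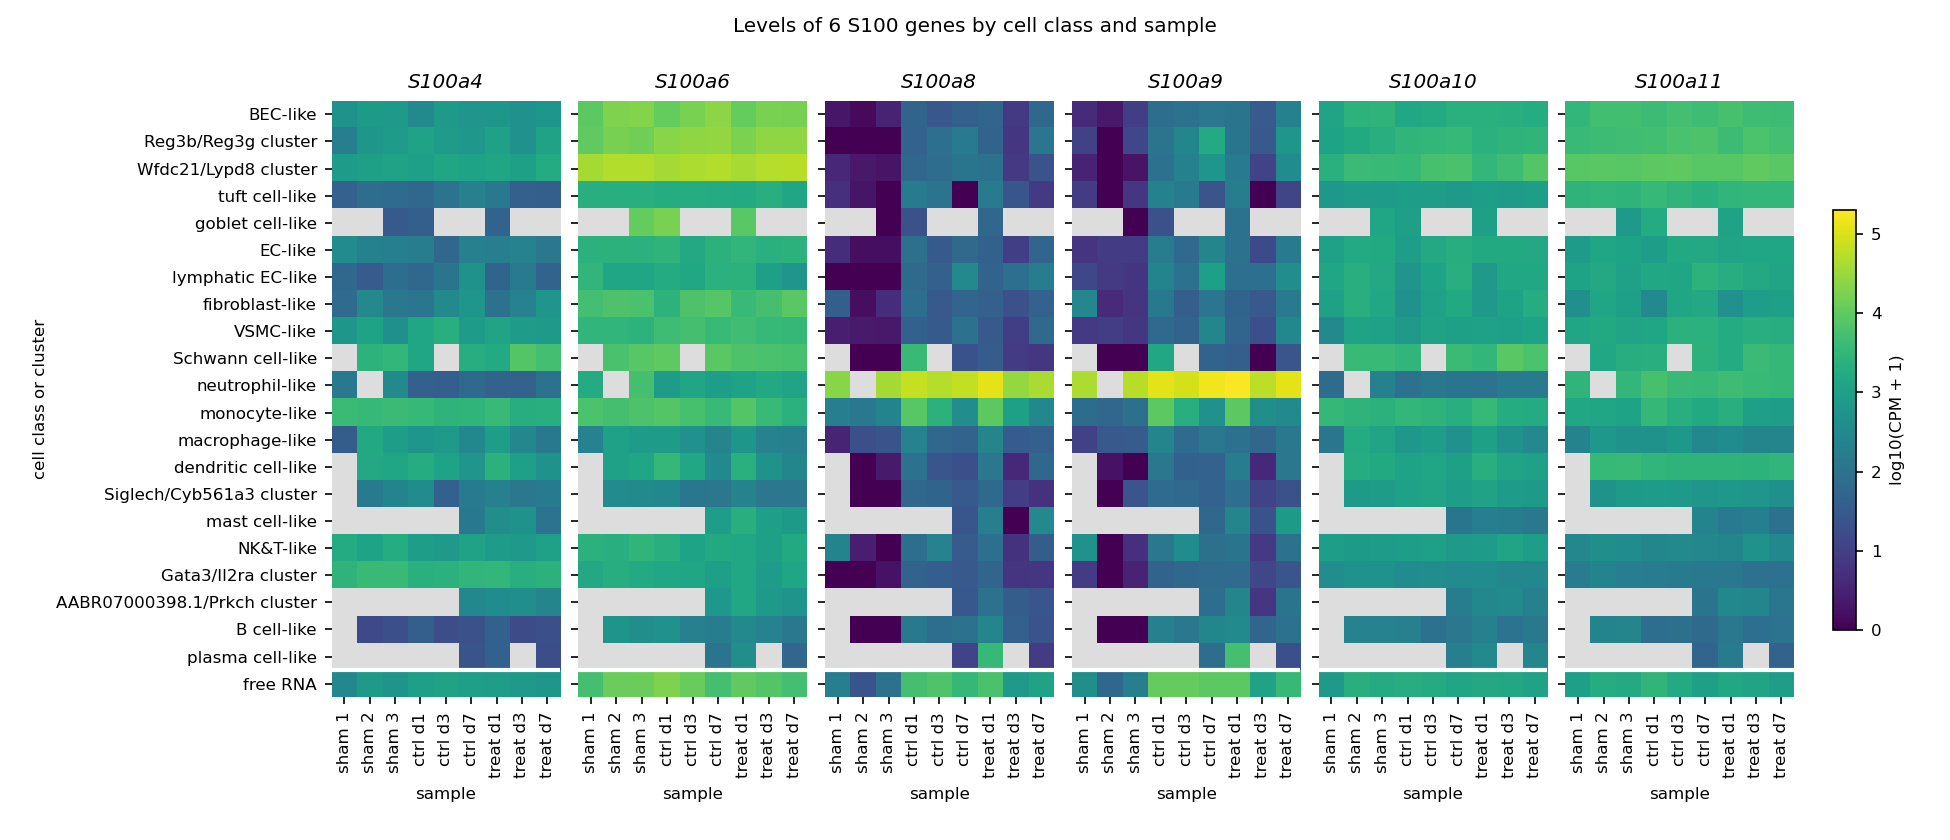
Level of each of the 6 S100 genes (color, log10 of CPM + 1) in 21 classes or clusters of cells and in free RNA (rows) in the 9 samples (columns). Grey marks under 20 cells. S100a8 and S100a9 stand out in neutrophil-like cells of every sample shown and in monocyte-like cells mainly at day 1, and S100a6 is highest in the Wfdc21/Lypd8 cluster.

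The first question was how the genes differ between transplanted and sham ducts, over all cells. S100a8 was 317, 7.38 and 30.8 CPM in sham, 6037, 5207 and 1921 CPM in ctrl, and 4926, 712 and 509.6 CPM in treat. S100a9 was 644, 17.7 and 44.4 CPM in sham, 10117, 8794 and 4497 CPM in ctrl, and 7183, 1145 and 1417 CPM in treat. In cells, every ctrl and treat sample lay above every sham sample for both genes, and treat days 3 and 7 lay lowest among the transplanted ones. The test was edgeR's quasi-likelihood test on UMIs summed per sample, with p-values adjusted over all genes tested (Benjamini-Hochberg) and a threshold of 0.05. In this test ctrl exceeded sham by 5.62 (SE 1.46, adjusted p = 0.0533) on the log2 scale for S100a8 and by 5.52 (SE 1.47, adjusted p = 0.0560) for S100a9, which missed the threshold. Without sham 1, the sham sample with the highest levels, both passed, at log2 fold changes of 8.07 (adjusted p = 0.0113) and 8.26 (adjusted p = 0.00773). In the other 8 fits that left out 1 sample neither passed, with adjusted p up to 0.173 for S100a8 and 0.174 for S100a9. Of the 6 members, 1 was called in all cells, S100a4, where 13.2% of all genes tested were called. DESeq2 called 3 of the 6, and it also called more of all genes than edgeR did. Here and below, the share of all genes called is that of edgeR, also where it stands beside a count by DESeq2.

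Neutrophil-like cells moved with these levels. Their share of all cells was 3.16, 0.108 and 0.350% in sham, 26.3, 31.4 and 7.78% in ctrl, and 12.2, 7.26 and 3.72% in treat. The 8 neutrophil markers fixed for naming cells, such as Csf3r, Cxcr2 and Mmp8, were all in the tables, and over all cells they summed to 60.7, 23.1 and 17.1 CPM in sham, 400.2, 462 and 179.9 CPM in ctrl, and 252, 107 and 75.6 CPM in treat. Share and list lay above all sham samples in each ctrl sample, as S100a8 and S100a9 did. Neither share nor list had a test of its own, and their part in the result was not tested. Neutrophil-like cells held 59.5 to 94.6% of the S100a8 UMIs of all cells and 68 to 95.4% of the S100a9 UMIs, and monocyte-like cells held 2.62 to 26.4% and 0.497 to 14%. In a level over all cells, fewer cells of a type and less RNA per cell cannot be told apart, and levels within neutrophil-like cells follow below. Libraries of 1 sample also differed, with S100a8 at 9141, 4969.6 and 999 CPM in the 3 libraries of ctrl day 1 and 772, 6341 and 472 CPM in those of ctrl day 7. Free RNA was higher after transplantation too, with S100a8 at 195, 22.9 and 96.3 CPM in sham, 5467, 7085 and 3367 CPM in ctrl, and 5909, 739 and 1142 CPM in treat. S100a9 in free RNA was 427, 61.4 and 187 CPM in sham, 10989, 11107 and 9377 CPM in ctrl, and 9152, 1136 and 3581 CPM in treat. Barcodes of over 100 UMIs that stayed at or below 400 genes, which were not kept as cells, also held both genes, up to 30117 CPM of S100a9 in ctrl day 7.

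**Figure D2:**
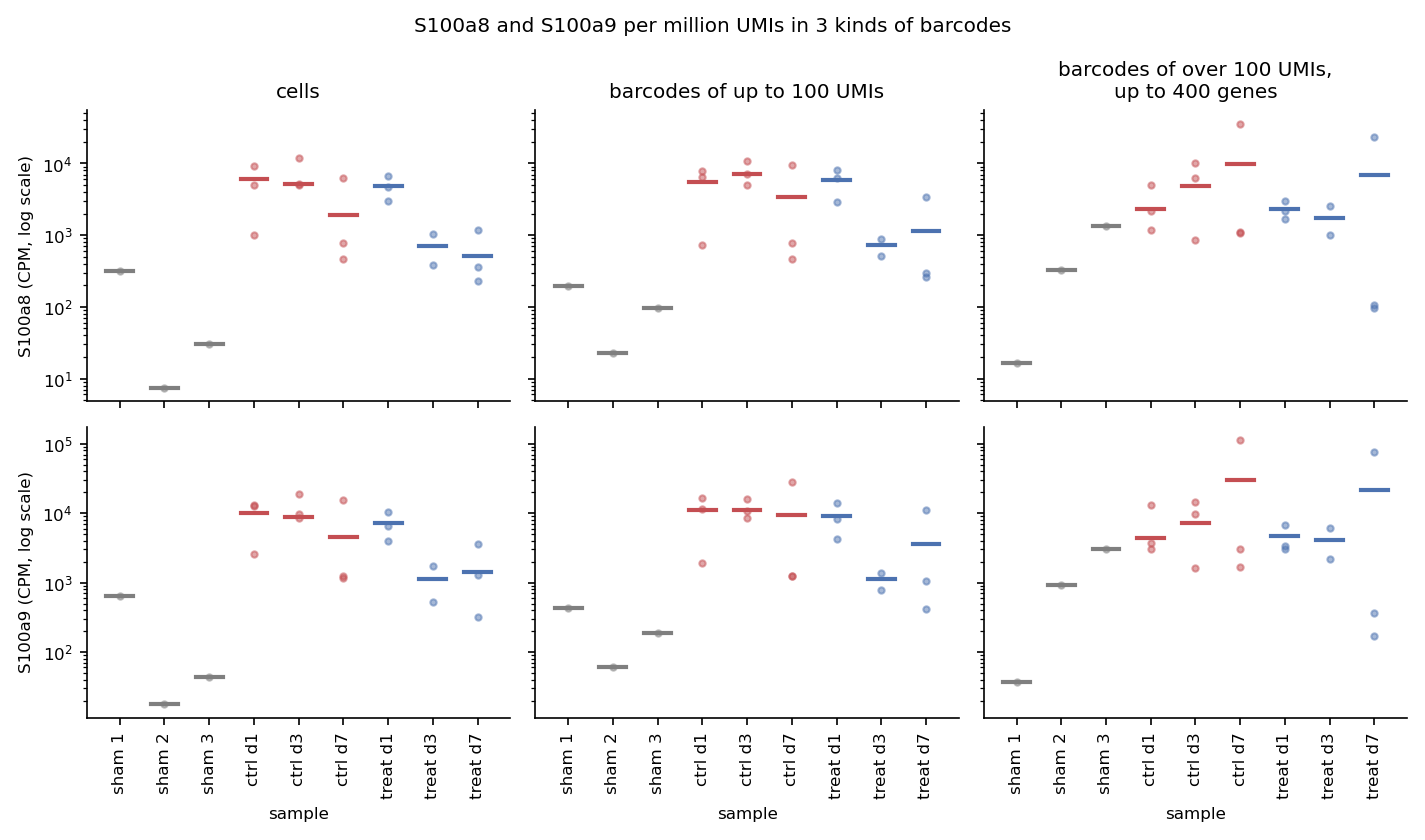
S100a8 (top) and S100a9 (bottom) in CPM on a log axis, in cells, in barcodes of up to 100 UMIs (free RNA) and in barcodes of over 100 UMIs with up to 400 genes, for the 9 samples. Bars are the samples and points their libraries. All 6 transplanted samples lie above the 3 sham samples in cells and in free RNA, and the 3 libraries of ctrl day 7 lie between 472 and 6341 CPM for S100a8 in cells.

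Within neutrophil-like cells, both genes were high in every group. S100a8 was 22282 and 38018 CPM in sham 1 and 3, 68076, 51997 and 66020.5 CPM in ctrl, and 120711, 28762 and 43191 CPM in treat. S100a9 was 44831 and 54298 CPM in sham 1 and 3, 119457, 92344 and 155688 CPM in ctrl, and 189518, 58548 and 122429 CPM in treat. Sham 2 had 10 such cells and is left out, and for this reason the class was fitted without sham. Every ctrl sample exceeded both sham samples for each gene, while treat day 3 lay within the range of the sham samples for S100a8 and just above it for S100a9. Neither treat against ctrl nor day 7 against day 1 was called, with log2 fold changes of -0.89 (SE 0.754, adjusted p = 0.732) for S100a8 and -0.22 (SE 0.797, adjusted p = 0.954) for S100a9 between the days. The class holds a cluster led by Retnlg and S100a9 and a smaller cluster led by Ca4 and the chemokine Ccl3, which made up 36.5% of the class in ctrl day 1 and 2.66% in treat day 1. In ctrl day 1, S100a8 was 36593 CPM in the Ca4/Ccl3 cluster and 86465 CPM in the Retnlg/S100a9 cluster. S100a11 in neutrophil-like cells was 2881 and 3233 CPM in sham 1 and 3, 5588, 3928 and 3487 CPM in ctrl, and 4463, 3672 and 3419 CPM in treat, and all 6 transplanted samples lay above sham 1 and 3. S100a4 was low there in transplanted samples, at 37.5 to 95 CPM, and sham 1 and 3 stood at 138 and 328 CPM.

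Monocyte-like cells, the next highest class for the calprotectin genes, rose above sham and changed with the day. S100a8 was 187, 139 and 251 CPM in sham, 8258, 2545 and 396 CPM in ctrl, and 9148, 1024 and 297 CPM in treat. S100a9 was 72.1, 54.9 and 88 CPM in sham, 9307, 2126 and 471 CPM in ctrl, and 9342, 422 and 337 CPM in treat. The sham levels of S100a9 rest on 30, 13 and 33 UMIs. Both genes were high at day 1 in both arms and lower at day 7, when all transplanted samples still lay above the sham range. Against sham, ctrl was higher for S100a8 (log2 fold change 3.61, SE 0.304, adjusted p = 7.00e-05) and S100a9 (log2 fold change 5.11, SE 0.385, adjusted p = 3.27e-05), in a class in which 7.45% of genes were called. Between the days, over both arms, S100a8 was lower at day 7 (log2 fold change -4.64, SE 0.380, adjusted p = 9.65e-05) and so was S100a9 (log2 fold change -4.54, SE 0.435, adjusted p = 0.000125), where 5.89% of genes were called. These 4 calls held in each of the 9 fits that left out 1 sample, with the free RNA profile subtracted and with DESeq2. Without the day as a term, the difference from sham missed the threshold, at adjusted p = 0.0803 for S100a8 and 0.0696 for S100a9.

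The class holds 2 clusters, whose levels are given apart. In the cluster led by RGD1559482 and Fcnb, which also has Vcan, a marker of classical monocytes, S100a8 was 298, 142 and 488 CPM in sham, 8832, 3700.4 and 721 CPM in ctrl, and 10293, 3492 and 2523 CPM in treat. In the cluster led by Fcnb and Mal, with the marker Spn, it was 18.2, 135 and 62.1 CPM in sham, 188, 375 and 100.01 CPM in ctrl, and 263, 637 and 77.8 CPM in treat. Fitted alone, the RGD1559482/Fcnb cluster was above sham by 3.36 (SE 0.432, adjusted p = 0.00290) on the log2 scale for S100a8 and 5.32 (SE 0.414, adjusted p = 1.12e-05) for S100a9, and between the days both fell, with log2 fold changes of -2.60 (SE 0.505, adjusted p = 0.0226) and -2.70 (SE 0.425, adjusted p = 0.0118). For the same genes, the Fcnb/Mal cluster gave 1.71 (SE 0.443, adjusted p = 0.0323) and 1.63 (SE 0.517, adjusted p = 0.0717) against sham, and -1.15 (SE 0.417, adjusted p = 0.175) and 0.02 (SE 0.468, adjusted p = 0.992) between the days. The difference between the clusters was not tested. For fits of single clusters, here and below, the share of all genes called is not given. The share of the RGD1559482/Fcnb cluster in the class was 44.2, 47.1 and 38.7% in sham, 89.8, 63.7 and 44% in ctrl, and 83.9, 14.1 and 9.37% in treat. At day 7 both its S100a8 level and its share were lower than at day 1 in each arm. At day 1 the median monocyte-like cell held 11 S100a8 UMIs in ctrl and 14 in treat, and the tenth of cells with the most held 63.7 and 54.2% of the UMIs. In ctrl day 1, 85.4% of monocyte-like cells (median 8367 UMIs) had an S100a8 UMI, against 17.2% of BEC-like cells (median 2346 UMIs). Other classes of this sample were higher than BEC-like cells, among them dendritic cell-like cells at 33.1% and fibroblast-like cells at 43.6%. The limit set for free RNA allowed 0.908% of the S100a8 UMIs of monocyte-like cells to come from it, 84.8% in dendritic cell-like cells, 78.6% in fibroblast-like cells and all of them in BEC-like cells.

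**Figure D3:**
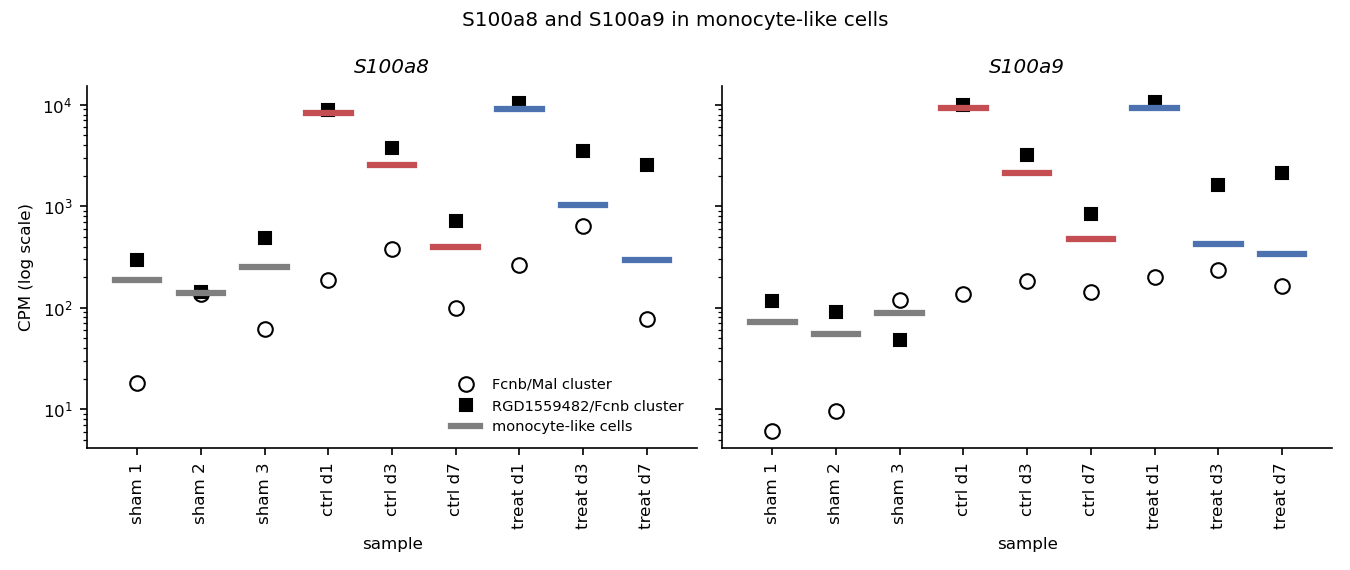
S100a8 (left) and S100a9 (right) in CPM on a log axis in monocyte-like cells of the 9 samples. Bars are the whole class, squares the RGD1559482/Fcnb cluster and circles the Fcnb/Mal cluster. At day 1 the squares reach 8832 CPM in ctrl and 10293 CPM in treat for S100a8, while the circles stay at 188 and 263 CPM.

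The ratio of the calprotectin genes differed between both kinds of cells. The number of S100a9 UMIs for each S100a8 UMI in monocyte-like cells was 0.385, 0.394 and 0.351 in sham, 1.13, 0.835 and 1.19 in ctrl, and 1.02, 0.412 and 1.14 in treat. In neutrophil-like cells it was 2.01 and 1.43 in sham 1 and 3, 1.75, 1.78 and 2.36 in ctrl, and 1.57, 2.04 and 2.83 in treat, and in free RNA the ratio ran from 1.54 to 3.14. The monocyte-like ratio was the lower in all 8 samples that have both classes, and below that of free RNA in all 9. In sham the monocyte-like ratio rests on only 30, 13 and 33 S100a9 UMIs. In sham 2, 1 cell held 10 of the 13, and in sham 3, 1 cell held 24 of the 33. Since the ratio depends on how well each transcript is captured, it compares classes within a sample and not the levels of both genes. In monocyte-like cells the 8 neutrophil markers summed to 334, 262 and 325 CPM in sham, 618, 483 and 285 CPM in ctrl, and 471, 251 and 232 CPM in treat, against 1639.7 to 5693 CPM in neutrophil-like cells. None of the 8 was at 0 in monocyte-like cells of a transplanted sample. In sham, 3 to 5 of the 8 were at 0 in monocyte-like cells. These sums differ in depth, with 87 to 137 cells and 237006 to 416226 UMIs in sham. Transplanted samples held 1061 to 4932 such cells and 8906511 to 22154165 UMIs. A marker of a few CPM can be at 0 in the smaller sums, so the zeros do not compare the groups. The summed list exceeded all sham samples in ctrl day 1, ctrl day 3 and treat day 1, and in the other 3 transplanted samples it lay below sham 1 and sham 3. Its part in the S100a8 and S100a9 values of monocyte-like cells was not tested.

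**Figure D4:**
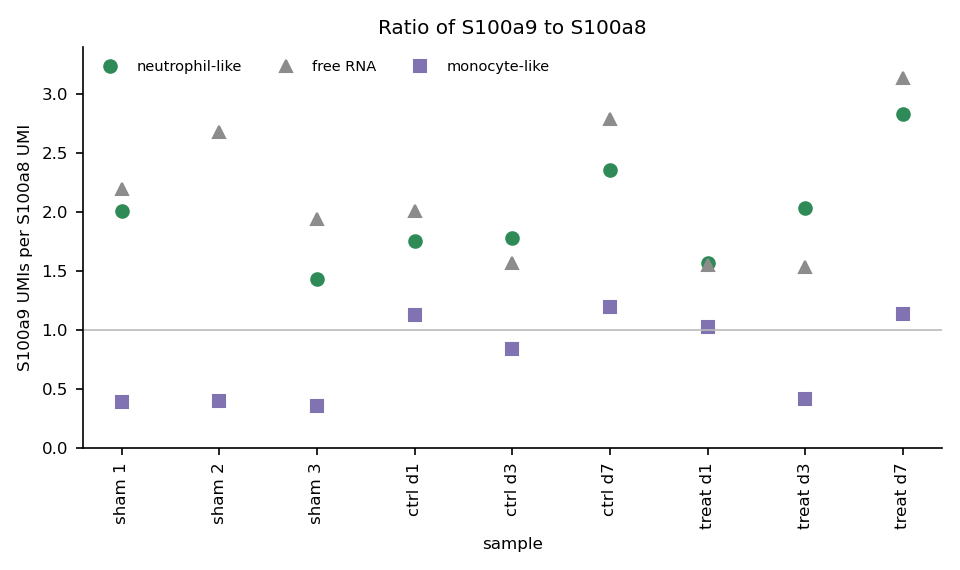
S100a9 UMIs per S100a8 UMI (linear axis) in neutrophil-like cells, free RNA and monocyte-like cells of the 9 samples, with a line at 1. Monocyte-like cells lie at 0.351 to 1.19 and neutrophil-like cells at 1.43 to 2.83.

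Over the 12 classes with enough cells in all 9 samples, ctrl was above sham for S100a8 in 10 and for S100a9 in 10, and S100a10 and S100a11 were higher in 1 class each, which makes 22 calls of 72 for the 6 members where 6.09% of all tests over these classes were calls. The exceptions for the calprotectin genes were fibroblast-like and NK&T-like cells, in which S100a9 was highest in sham 1 among the sham and ctrl samples, at 285 and 534 CPM. S100a8 was also highest in sham 1 in NK&T-like cells, and in fibroblast-like cells sham 1 lay at 39.2 CPM, within the ctrl range of 29.3 to 82.6 CPM. Outside monocyte-like cells, both genes lay below free RNA of the same sample in all of these classes and samples, apart from NK&T-like cells of sham 1, where S100a8 was 1.24 and S100a9 1.25 times its level in free RNA. These NK&T-like values of sham 1 rest on few cells: its 97 S100a8 UMIs lay in 2.7% of 111 cells, 95 of them in the Gzmm/Gzmk cluster. S100a9 in monocyte-like cells was itself below free RNA in 8 of the 9 samples and S100a8 in 4. In ctrl day 7, S100a9 stood at 0.0502 times its level in free RNA in monocyte-like cells, 0.184 times in the Reg3b/Reg3g cluster and 0.104 times in lymphatic endothelial cell (EC)-like cells. In BEC-like cells S100a8 was 1.10, 0.334 and 2.45 CPM in sham, 50.9, 26.8 and 40.3 CPM in ctrl, and 51.5, 6.90 and 60.8 CPM in treat, far below its level in free RNA of the same samples. Over the class sums of ctrl samples, S100a8 was within the limit set for free RNA in 36 of 54 and S100a9 in 37 of 54, while the other 4 members were so in at most 5. After the profile of free RNA was subtracted, S100a8 kept 1 of its 10 calls, in monocyte-like cells, and S100a9 kept 3, in monocyte-like cells, the Wfdc21/Lypd8 cluster and lymphatic EC-like cells. Of the calls that were lost, 1 of S100a8 and 4 of S100a9 turned in direction, and S100a9 in macrophage-like cells was then called lower in ctrl (adjusted p = 0.0396). The amount subtracted was the upper limit, and free RNA held 9377 to 11107 CPM of S100a9 in ctrl against 61.4 to 427 CPM in sham. Whether too much was taken out of ctrl was not tested, so these lost and turned calls are not read as lower levels. With libraries as samples each gene kept 4 of its 10 calls. In macrophage-like cells the call of S100a8 was lost in 8 of 9 fits that left out 1 sample and that of S100a9 in 7 of 9.

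S100a9 was uneven between the cells of a class. In monocyte-like cells of the 6 transplanted samples, the tenth of cells with the most held 61.7 to 95.6% of its UMIs. S100a9 in the Wfdc21/Lypd8 cluster was 2.35, 0 and 0.924 CPM in sham, 97.4, 213 and 621 CPM in ctrl, and 144, 11 and 386 CPM in treat, and 457 of its 1038 UMIs in ctrl day 7 lay in 1 of 216 cells. In lymphatic EC-like cells it was 13, 7.11 and 5.64 CPM in sham, 251, 91.7 and 974 CPM in ctrl, and 86.6, 87.3 and 388 CPM in treat, and 421 of 1217 UMIs in ctrl day 7 lay in 1 of 186 cells. In the Reg3b/Reg3g cluster it was 9.57, 0 and 12.4 CPM in sham, 108, 269.9 and 1729 CPM in ctrl, and 114, 28.6 and 595 CPM in treat, and 1103 of 2165 UMIs in ctrl day 7 lay in 1 of 92 cells. The ctrl samples lay above the sham samples in all 3 classes, and ctrl day 7 was the highest sample in each. The neutrophil list in ctrl day 7 was 6.58 CPM in the Wfdc21/Lypd8 cluster, 40.0 CPM in lymphatic EC-like cells and 7.99 CPM in the Reg3b/Reg3g cluster, against 2.77 to 11.2, 2.60 to 11.3 and 0 to 12.4 CPM in sham. Between day 1 and day 7, S100a9 was called higher in the Reg3b/Reg3g cluster (log2 fold change 3.01, SE 0.557, adjusted p = 0.0371), where 0.55% of genes were called, in lymphatic EC-like cells (log2 fold change 1.93, SE 0.319, adjusted p = 0.00802), where 5.17% of genes were called, and in cells like vascular smooth muscle (VSMC-like; log2 fold change 2.19, SE 0.314, adjusted p = 0.0150), where 2.06% were. S100a9 in VSMC-like cells went from 63.6 to 264 CPM in ctrl and from 53 to 295 CPM in treat. There 362 of 1610 UMIs of ctrl day 7 lay in 1 cell, and the neutrophil list stood at 117 CPM against 3.46 to 4.28 CPM in sham. S100a8 was also called higher at day 7 in lymphatic EC-like cells (log2 fold change 1.94, SE 0.400, adjusted p = 0.0289). Tuft cell-like cells went the other way, with S100a8 at 160.5 and 0 CPM in ctrl at days 1 and 7 and 147 and 6.92 CPM in treat (log2 fold change -4.46, SE 0.584, adjusted p = 0.000803), and S100a9 followed (log2 fold change -3.48, SE 0.646, adjusted p = 0.0181). Each of the 4 calls of a higher level at day 7 was lost without ctrl day 1 or without ctrl day 7 (adjusted p 0.0650 to 0.326), with libraries as samples (0.0824 to 0.251) and with doublet-scored cells kept (0.645 to 0.789), and in VSMC-like cells the last of these turned the direction (log2 fold change -0.30). The calls in VSMC-like cells and of S100a8 in lymphatic EC-like cells were also lost without treat day 1 or treat day 7, that of S100a9 in lymphatic EC-like cells without treat day 1, and that in the Reg3b/Reg3g cluster without treat day 7, sham 2 or sham 3. In tuft cell-like cells the call of S100a8 was lost without treat day 1 or treat day 7 and that of S100a9 without any 1 of the day 1 and day 7 samples, and DESeq2 called neither. With the free RNA profile subtracted, both genes were at 0 in tuft cell-like cells of every sample, and no fit was made. The 4 calls of a higher level held with that profile subtracted, and in free RNA itself both genes were lower at day 7 than at day 1 in both arms. Single cells rich in these UMIs move with these values, and their part was not tested.

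S100a4 was the member called in all cells. It was 622, 682 and 499.99 CPM in sham, 1103, 1037 and 965 CPM in ctrl, and 935, 784 and 712 CPM in treat. All ctrl samples lay above all sham samples, and so did the treat samples. The difference of ctrl from sham was 1.14 (SE 0.170, adjusted p = 0.0189) on the log2 scale, and 0.78 (adjusted p = 0.0274) when samples were scaled by library size alone. The call was lost when sham 2, sham 3 or any ctrl day was left out, with adjusted p of 0.0643 to 0.115 over these 5 fits. Monocyte-like cells, which are rich in S100a4, made up 0.944 to 4.18% of the cells in sham, 8.28 to 18.9% in ctrl and 11 to 22.3% in treat. They held 2.23 to 28.6% of the S100a4 UMIs in sham, 29.5 to 52.1% in ctrl and 28 to 46.7% in treat, and the part of their number in the result was not tested. Within monocyte-like cells S100a4 was 4007, 3498 and 4059 CPM in sham, 3604, 2817 and 2902 CPM in ctrl, and 3993, 2001 and 2149.9 CPM in treat, with a log2 fold change of -0.10 (SE 0.221, adjusted p = 0.824) against sham. S100a4 was called in none of the 12 classes against sham by edgeR, with 4 at an unadjusted p under 0.05 and 1 by DESeq2. The nearest was in NK&T-like cells (natural killer and T cells), at 1799.5, 1170.4 and 1866 CPM in sham, 904, 703 and 1153 CPM in ctrl, and 835, 726 and 1064 CPM in treat (log2 fold change -0.77, SE 0.202, adjusted p = 0.0512). All ctrl samples lay below all sham samples there. In the cluster of this class led by Icos and Tnfrsf4, fitted alone, S100a4 and S100a6 were lower in ctrl, with log2 fold changes of -1.24 (SE 0.214, adjusted p = 0.00956) and -1.02 (SE 0.214, adjusted p = 0.0295). The Gzmm/Gzmk cluster of the class had values of the opposite sign that missed the threshold, 0.63 (SE 0.201, adjusted p = 0.0716) for S100a4 and 0.65 (SE 0.208, adjusted p = 0.0699) for S100a6.

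The second question was how the genes differ between days after transplantation, over both arms. Over all cells none of the 6 members was called by edgeR, where 3.17% of genes were, with 2 at an unadjusted p under 0.05 and 2 by DESeq2, namely S100a6 and S100a11. Their edgeR values were -1.07 (SE 0.334, adjusted p = 0.128) and -0.95 (SE 0.305, adjusted p = 0.136) on the log2 scale. Within 16 classes there were 17 calls of 96, 9 higher and 8 lower at day 7, where 4.5% of all tests were calls. In fibroblast-like cells, which lay down collagen, 4 of the 6 members rose. S100a6 there was 5255, 6651 and 6102 CPM in sham, 2614, 6559 and 8017 CPM in ctrl, and 3708, 5443 and 8926 CPM in treat (log2 fold change 1.24, SE 0.238, adjusted p = 0.00755). S100a4 was 70.3, 306 and 129.7 CPM in sham, 118, 332 and 620.4 CPM in ctrl, and 92.3, 223 and 582 CPM in treat (log2 fold change 2.33, SE 0.575, adjusted p = 0.0192). S100a10 (log2 fold change 1.41, SE 0.327, adjusted p = 0.0150) and S100a11 (log2 fold change 1.47, SE 0.461, adjusted p = 0.0453) were also higher at day 7. The S100a10 level was 1062, 2138 and 1504 CPM in sham, 497, 1088 and 1689 CPM in ctrl, and 691, 1195 and 1906 CPM in treat, and that of S100a11 was 459.9, 1299 and 985 CPM in sham, 338, 1339 and 1615 CPM in ctrl, and 479.5, 919 and 1032 CPM in treat. For S100a6 and S100a10 the day 1 samples lay below all sham samples, whereas for S100a4 the day 7 samples lay above them. Of all genes tested in fibroblast-like cells, 28.5% were called. The fibroblast-like cells of day 1 were 97.3 and 98.2% from a cluster led by Ptx3 and Mgp, which made up 2.79 and 2.10% of them at day 7. In this cluster alone S100a4, S100a6 and S100a11 were again higher at day 7, by 2.98 (SE 0.282, adjusted p = 0.00152), 1.65 (SE 0.215, adjusted p = 0.00492) and 2.28 (SE 0.423, adjusted p = 0.0174), and S100a10 missed the threshold at 1.09 (SE 0.357, adjusted p = 0.110). The cluster held 30 and 20 cells at day 7. The share of all genes called in its fit is not given, so these calls are not read as particular to S100 genes. Leaving out any 1 of the 4 samples of days 1 and 7 lost the calls of S100a4 (adjusted p 0.0977 to 0.122) and S100a10 (0.0819 to 0.137). The call of S100a6 was lost without ctrl day 1, ctrl day 7 or treat day 7 (0.0743 to 0.0912), and that of S100a11 without any 1 sample other than sham 1 and sham 2 (0.0599 to 0.293).

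Dendritic cell-like cells, which carry antigen to lymph nodes, went the opposite way. S100a6 was 1088 and 1284 CPM in sham 2 and 3, 3308, 1452 and 336 CPM in ctrl, and 2293, 505 and 269 CPM in treat (log2 fold change -3.19, SE 0.337, adjusted p = 0.00142). S100a4 was 1573 and 1286 CPM in sham 2 and 3, 1906, 1198 and 590.3 CPM in ctrl, and 2513, 972 and 494 CPM in treat (log2 fold change -2.04, SE 0.287, adjusted p = 0.00424), in a class where 6.78% of genes were called. Both genes fell from day 1 to day 7 in each arm, and the day 7 samples lay below sham 2 and 3. Cells of a cluster led by Tbc1d4 and Il7r, with the maturation markers Ccr7 and Fscn1, made up 89.9 and 64.7% of the class at day 1 and 9.77 and 8.62% at day 7. In the other cluster, led by Ccl17 and Cst3, S100a6 was 908 and 288 CPM at days 1 and 7 in ctrl and 757 and 241 CPM in treat. Fitted alone, this cluster was also lower at day 7, with log2 fold changes of -1.55 (SE 0.258, adjusted p = 0.0163) for S100a6 and -1.60 (SE 0.239, adjusted p = 0.00799) for S100a4. In the Tbc1d4/Il7r cluster S100a6 went from 3625 to 1064 CPM in ctrl and from 3789 to 1083 CPM in treat, without a fit of its own. The call of S100a6 was lost without ctrl day 7 (adjusted p = 0.0549), and that of S100a4 without ctrl day 7 or treat day 7 (0.118 to 0.137). In monocyte-like cells S100a6 also fell, from 7594 to 3915 CPM in ctrl and from 7671 to 2416 CPM in treat (log2 fold change -1.26, SE 0.283, adjusted p = 0.0194). That fall was not called within either monocyte-like cluster, at -0.11 (SE 0.304, adjusted p = 0.893) and -0.62 (SE 0.285, adjusted p = 0.304), and it was lost without ctrl day 7, treat day 1 or treat day 7 (adjusted p 0.0914 to 0.311).

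The Reg3b/Reg3g cluster was small in sham and large at day 1, with 20, 41 and 53 cells in sham, 2476, 216 and 92 cells in ctrl, and 3323, 249 and 89 cells in treat. Their S100a10 was 1205, 1662 and 2099 CPM in sham, 2899, 3290.2 and 3573 CPM in ctrl, and 2413, 2776 and 2874 CPM in treat, so that all 6 transplanted samples lay above the sham samples. It was called against sham (log2 fold change 1.08, SE 0.251, adjusted p = 0.0303), where 4.6% of genes were called, and lost the call without sham 1, sham 2 or any ctrl day (adjusted p 0.0513 to 0.156) and with libraries as samples (0.0881). In the same cluster S100a6 was 10049, 16360.5 and 14479 CPM in sham, 23061, 26486 and 26984 CPM in ctrl, and 17723, 25764 and 26371 CPM in treat, and it did not overlap with sham either, but the difference missed the threshold (log2 fold change 1.02, SE 0.273, adjusted p = 0.0580). In BEC-like cells S100a6 was 9284, 18769 and 20252 CPM in sham, 11260.0, 17271 and 23961 CPM in ctrl, and 11116, 17424 and 16549 CPM in treat, with sham 1 and both day 1 samples lowest, and a log2 fold change of 0.11 (SE 0.313, adjusted p = 0.908) against sham. BEC-like cells of sham were 94.4 to 98.3% from a cluster led by Ttr and Akr1c15, and those of day 7 95.4 and 97.3% from a cluster led by Gkn3 and Clca5. The Wfdc21/Lypd8 cluster kept its high S100a6 and S100a11 in every sample, at 37793 to 55060.1 CPM and 8266 to 10020.5 CPM, and neither was called in any comparison there. S100a11 was called against sham in monocyte-like cells, at 1492, 1363 and 1202 CPM in sham, 3373, 2242 and 1686 CPM in ctrl, and 2068, 983 and 947 CPM in treat (log2 fold change 1.02, SE 0.212, adjusted p = 0.0154), and was lower at day 7 than at day 1 (log2 fold change -1.02, SE 0.258, adjusted p = 0.0324). The RGD1559482/Fcnb cluster alone gave 1.56 (SE 0.248, adjusted p = 0.00604) against sham and the Fcnb/Mal cluster -0.16 (SE 0.228, adjusted p = 0.741), and neither was called between the days. The first call was lost without sham 2, sham 3, ctrl day 1 or ctrl day 7 (adjusted p 0.0554 to 0.0924), with libraries as samples (0.133) and without the day term (0.0947), and the second without sham 2, sham 3 or any day 1 or day 7 sample (0.0523 to 0.335). In lymphatic EC-like cells S100a10 was 592 and 749 CPM at day 1 of ctrl and treat and 2246 and 1521 CPM at day 7 (log2 fold change 1.37, SE 0.330, adjusted p = 0.0401), a call that was lost without any 1 sample other than sham 1 (adjusted p 0.0531 to 0.343).

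**Figure D5:**
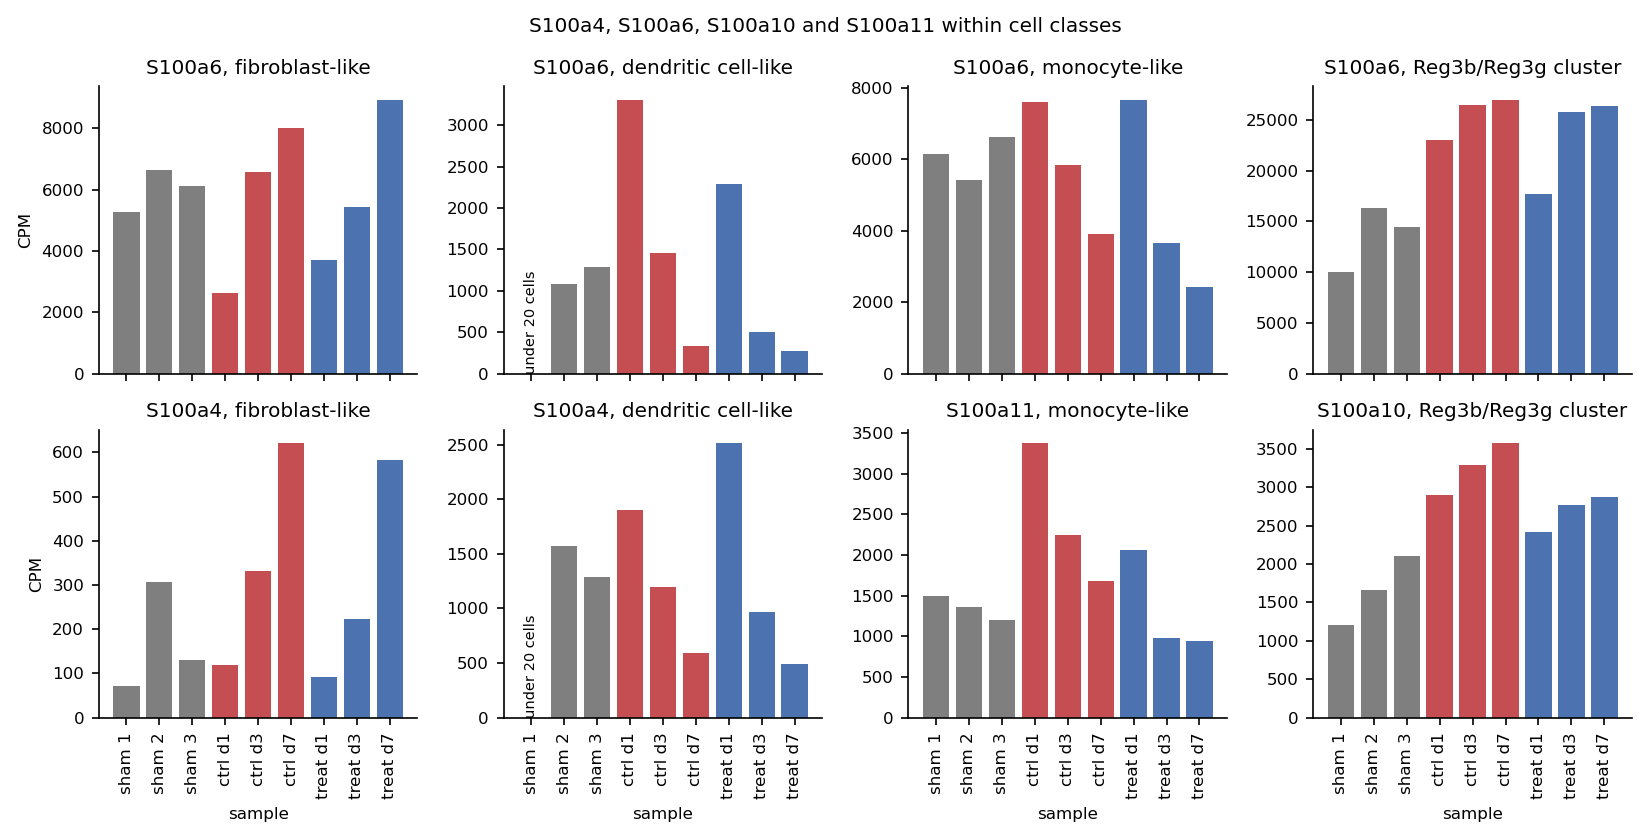
Level in CPM (linear axes from 0) of S100a6 (top) and of S100a4, S100a11 or S100a10 (bottom) in fibroblast-like, dendritic cell-like and monocyte-like cells and in the Reg3b/Reg3g cluster, 1 bar for each of the 9 samples, with grey sham, red ctrl and blue treat. S100a6 rises from 2614 to 8017 CPM between ctrl days 1 and 7 in fibroblast-like cells and falls from 3308 to 336 CPM in dendritic cell-like cells.

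The third question was what raised arterial flow adds, that is treat against ctrl with the day as a term. Over all cells none of the 6 members was called by edgeR, where 0% of genes were, with 1 at an unadjusted p under 0.05 and 0 by DESeq2. The log2 fold changes were -1.77 (SE 1.29, adjusted p = 0.981) for S100a8 and -1.77 (SE 1.29, adjusted p = 0.981) for S100a9, and from -0.53 to -0.31 for the other 4. Each treat sample was below the ctrl sample of its day for both genes and so were its neutrophil-like share of cells and its neutrophil list, whose part was not tested. Within 16 classes there were 0 calls of 96 by edgeR, where 0.027% of all tests were calls, with 12 at an unadjusted p under 0.05 and 3 by DESeq2. In monocyte-like cells, S100a11 was lower in treat at each day, with a log2 fold change of -0.95 (SE 0.211, adjusted p = 0.135), and S100a8 gave -0.57 (SE 0.269, adjusted p = 0.782). In neutrophil-like cells the values were -0.30 (SE 0.615, adjusted p = 0.965) for S100a8 and -0.19 (SE 0.652, adjusted p = 0.979) for S100a9. A p above the threshold does not show equal levels, and each arm has 1 sample a day.

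Of the other S100 genes listed, 7 of the 8 in the tables could be tested over all cells, and 0 were higher and 2 lower in ctrl than in sham by edgeR, where 13.2% of all genes were called, and 4 were called by DESeq2. The lower ones were S100a1 (log2 fold change -1.85, SE 0.252, adjusted p = 0.0164) and S100b, a gene of Schwann cells (log2 fold change -2.32, SE 0.360, adjusted p = 0.0197). Within classes 3 tests of 49 were higher and 5 lower against sham, and 7 of 58 higher and 3 lower at day 7 than at day 1, where 6.09% and 4.5% of all tests were calls. In dendritic cell-like cells S100a1, S100a5 and S100a13 fell with S100a4 and S100a6 between the days, S100a5 with a log2 fold change of -6.11 (SE 0.643, adjusted p = 0.00142). S100a5 is among the leading genes of the Tbc1d4/Il7r cluster, whose share of the class was lower at day 7. In that cluster it went from 383 to 20.9 CPM in ctrl and from 190.3 to 86.2 CPM in treat, without a fit of its own. In fibroblast-like cells S100a1, S100a3, S100a5, S100a16 and S100b rose between the days, in a class in which 28.5% of genes were called, S100a5 by 2.79 (SE 0.578, adjusted p = 0.00982) and S100a3 by 2.20 (SE 0.337, adjusted p = 0.00347).

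Of the 13 partners and receptors tested over all cells, 2 were higher in ctrl than in sham and 0 lower, a share near the 13.2% of all genes that were called. These were Myd88 (log2 fold change 0.53, SE 0.111, adjusted p = 0.0336) and Plaur, the urokinase receptor (log2 fold change 1.12, SE 0.277, adjusted p = 0.0481). Neither of the 2 other alarmins, Hmgb1 and Il33, was called over all cells by edgeR (1 at an unadjusted p under 0.05, 1 by DESeq2). Within classes, 13 of 128 tests of partners were higher and 9 lower against sham, where 6.09% of all tests were calls. The annexins moved beside S100a10 in the Reg3b/Reg3g cluster: on the log2 scale Anxa1 rose by 1.94 (SE 0.287, adjusted p = 0.00304) and Anxa2 by 1.42 (SE 0.216, adjusted p = 0.00324). Il33 rose in this cluster by 2.60 (SE 0.257, adjusted p = 0.000636), in the Wfdc21/Lypd8 cluster by 4.75 (SE 0.507, adjusted p = 0.00665), where 4.44% of genes were called, and in fibroblast-like cells by 2.25 (SE 0.411, adjusted p = 0.0108), where 18.8% of genes were called. The clusters of fibroblast-like cells were not alike in sham and ctrl: a cluster led by Ogn and Dpep1 made up 46.2, 43.4 and 65.8% of them in sham and 0, 1.46 and 0% in ctrl. In the Cthrc1/Mfap5 cluster Il33 was 149.7, 171 and 138 CPM in sham and 442 and 381 CPM in ctrl at days 3 and 7, without a fit against sham. Ahnak, a large scaffold that binds the S100A10 and annexin A2 complex, rose in the Reg3b/Reg3g cluster (log2 fold change 1.97, SE 0.285, adjusted p = 0.00286) and fell in 6 other classes, among them the Gata3/Il2ra cluster (log2 fold change -1.61, SE 0.247, adjusted p = 0.00972). Between the days, 5 of 165 tests of partners were higher and 6 lower, where 4.5% of all tests were calls, and all 5 of the higher ones lay in fibroblast-like cells, in which 28.5% of genes were called. Anxa1 and Anxa2 rose there, by 1.29 (SE 0.246, adjusted p = 0.00742) and 1.29 (SE 0.410, adjusted p = 0.0464), and fell in monocyte-like cells, with log2 fold changes of -1.85 (SE 0.328, adjusted p = 0.00566) and -1.48 (SE 0.325, adjusted p = 0.0178). In fibroblast-like cells Ahnak, Tlr4 and Ager also rose between the days, by 1.97 (SE 0.224, adjusted p = 0.00177), 2.59 (SE 0.346, adjusted p = 0.00232) and 1.70 (SE 0.500, adjusted p = 0.0357). Against ctrl, treat gave no edgeR call in any of these lists over all cells or in a class, and within classes 10 tests of other S100 genes, 25 of partners and 3 of other alarmins had an unadjusted p under 0.05. DESeq2 called 1, 3 and 1 tests of these lists within classes, in the same order. In single clusters fitted alone by edgeR, Il33 was lower in treat in the Ptx3/Mgp cluster of fibroblast-like cells (log2 fold change -2.57, SE 0.292, adjusted p = 0.00304). It was 338, 422 and 186 CPM in ctrl and 82.7, 55.9 and 21.4 CPM in treat. This cluster held 498, 93 and 30 cells in ctrl and 5600, 42 and 20 cells in treat, so the later values rest on few cells. S100g was lower in treat in the Gkn3/Clca5 cluster of BEC-like cells (log2 fold change -1.24, SE 0.263, adjusted p = 0.00218). These fits were chosen after seeing the data and were not repeated without 1 sample, and the share of all genes called in them is not given.

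Across the 21 classes and clusters, the level of each member on a log2(CPM + 1) scale was compared with that of 4390 genes. For this comparison the UMIs of a class were pooled over all samples, so these levels are not the means given above. The classes share libraries and depth, so the correlations are a description. S100a8 and S100a9 were each other's nearest gene (Pearson's r = 0.97), followed by Clec4d (0.93) and Lilrc2 (0.91) for S100a8 and by Ifit1bl (0.93) and Clec4e (0.92) for S100a9. S100a6 was nearest to Anxa1 (0.86), Hbegf (0.86) and Txnrd1 (0.85). S100a11 was nearest to Anxa2 (0.91), Chmp2a (0.87) and LOC100360218 (0.86), and S100a10 to Gipc1 (0.87), Anxa7 (0.87) and Zbtb8os (0.87). The nearest genes of S100a4 were Fabp5 (0.71), Psmb7 (0.68) and Tagln2 (0.67). Among the members, S100a6 and S100a11 had r = 0.75 and S100a6 and S100a10 0.71.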

How the data were processed

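Droplet 3' single-cell RNA libraries of rat bile duct were analysed from the deposited tables, in which the authors' Cell Ranger run left raw UMI counts per gene and barcode with empty barcodes kept. The processing notes name Cell Ranger 5.0.1 and Seurat 3.2.0, and the genome build is not given in the sources used here. Of treat day 3, library 1 was not analysed here.

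A barcode passed if it had more than 400 and fewer than 6000 genes, and if mitochondrial genes took less than 25% and hemoglobin genes less than 3% of its UMIs, which left 150284. A doublet score was then computed against simulated pairs, and 10779 barcodes that scored above its percentile of 92.5 were dropped. The score marked 4898 of 7508 simulated pairs, or 65.2%. The remaining cells were clustered on 2000 variable genes, 30 principal components and 15 neighbours (Leiden resolution 0.9, igraph 0.11.9, scikit-learn 1.9.0). A marker was detected where over 10% of a cluster's cells held it at over 2 times its level elsewhere, and a name needed 3 markers. UMIs were summed per sample, over libraries, and fitted with edgeR 4.0.16 (TMM scaling, filterByExpr, terms for group and day, Benjamini-Hochberg over all genes tested, R 4.3.3). DESeq2 1.42.0 was an alternative. A class was fitted in 9 samples, or in the 6 transplanted ones where sham had under 20 cells. Fold changes come from the fit, so that day is held equal between arms, and sham samples have no day. On data simulated for ctrl against sham in all cells (15861 genes), 167 of 198 genes changed by a log2 fold of 3 were called, with 5 false calls.

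The members and gene lists were chosen with earlier results of these data known. Named genes are the 6 members, the called genes of 3 lists (other S100 genes, partners and receptors, other alarmins) with examples, and the 3 genes most alike in pattern among genes reaching 100 CPM. Ctrl day 3 from library 1 alone and single clusters fitted alone were alternatives chosen after seeing the data. The precision of a level is limited by 1 sample a day, and shares and counts are given without an error for variation between libraries or samples.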

Additional observations from a re-analysis of the deposited data

Results flagged for a closer look

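Barcodes of over 100 UMIs that did not exceed 400 genes entered none of the report's comparisons and only 2 of the alternatives. In them both calprotectin genes were higher in every ctrl sample than in any sham sample, and treat was not part of this comparison. S100a8 was 2326 CPM in the lowest ctrl sample and 1355 CPM in the highest sham sample. S100a9 was 4395 CPM in the lowest ctrl sample and 3079 CPM in the highest sham sample. These barcodes were not sorted into cells and fragments, and the difference was not tested. Both genes are listed because their ctrl and sham values did not overlap. The share of all genes without overlap in these barcodes was not computed, so this is not read as particular to them.

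Between day 7 and day 1, the same gene was called in opposite directions in different classes. S100a4 had log2 fold changes of 2.33 in fibroblast-like cells and -2.04 in dendritic cell-like cells. S100a6 had 1.24 and -3.19 in the same classes. S100a8 had 1.94 in lymphatic EC-like cells and -4.64 in monocyte-like cells. S100a9 had 3.01 in the Reg3b/Reg3g cluster and -4.54 in monocyte-like cells. S100a11 had 1.47 in fibroblast-like cells and -1.02 in monocyte-like cells. Each of these passed its own test, and the difference between classes was not tested. Apart from the falls of S100a8 and S100a9 in monocyte-like cells, each call was lost in some fit that left out 1 sample. The rises of S100a8 and S100a9 were also lost with libraries as samples and with doublet-scored cells kept. In ctrl day 7, 1103 of 2165 S100a9 UMIs of the Reg3b/Reg3g cluster lay in 1 cell. The fall of S100a11 was called in neither monocyte-like cluster alone by edgeR (adjusted p = 0.593 and 0.187).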

How the results depend on the processing

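Of 431 alternative values for 23 results on a member in all cells or in a class, 4 turned in direction, beside the calls within classes that turned with free RNA subtracted or doublet-scored cells kept. The 4 were S100a6 in all cells against sham without ctrl day 1 (log2 fold change -0.0277, where leaving out 1 sample gave values up to 0.523), S100a10 in all cells against sham with library size alone as the scaling (-0.0275), S100a11 against sham in the Fcnb/Mal cluster alone (-0.16) and S100a9 between the days in the Fcnb/Mal cluster alone (0.0213). None of these 4 passed the test there. The 23 results are the 6 members in all cells against sham, S100a6 and S100a11 in all cells between the days, and class calls. Calls of S100a8 and S100a9 in classes other than monocyte-like are not among them. Some of the values in all cells were not called, and for these the same label means only that they stayed so. Against sham in all cells, the 1 member called became 3 with DESeq2, with libraries as samples, with doublet-scored cells kept, with barcodes of over 200 genes and with all barcodes, and 2 without the day term. Within classes, the 22 calls against sham became 9 with libraries as samples and 8 with free RNA subtracted, and the 18 calls of S100a8 and S100a9 outside monocyte-like cells became 6 and 2. The 0 calls of treat against ctrl within classes became 1 with library size alone, 3 with DESeq2 and 9 with no filter on low counts. Between the days, the 0 calls in all cells became 2 with DESeq2 and 3 with libraries as samples, and the 17 within classes became 28 with no filter on low counts. With UMIs pooled over samples, 4 of the 6 members kept their highest class.

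Leaving out 1 sample at a time gave 0 to 3 members called in all cells against sham, 13 to 31 calls within classes against sham, 0 to 3 within classes for treat against ctrl and 3 to 26 within classes between the days. Over all genes, 2117 were called in all cells against sham, 4774 by DESeq2, 0 without sham 2 or without sham 3, 15 without ctrl day 3 and 1 without ctrl day 7. Scaling by library size alone moved the median of all genes from -0.03 to -0.39 on the log2 scale, and the calls from 1281 higher and 836 lower to 497 higher and 2020 lower. The cause of these shifts was not tested. Against sham, where no day is shared, samples could not be paired. Ctrl and treat share their days, and that comparison had the day as a term, without which the 6 members again gave 0 calls over all cells and within classes. A library number within a day marks no shared animal and paired no samples.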

Other observations

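Among macrophage-like cells, S100a4 was called against sham in the cluster led by Mmp12 and Fcgr3a, where its level was low, but not in the class as a whole. In this cluster it was 23.4, 82.6 and 68.0 CPM in sham, 85.1, 426 and 256 CPM in ctrl, and 117, 349.9 and 148 CPM in treat at days 1, 3 and 7, with a log2 fold change of 1.85 (SE 0.391, adjusted p = 0.0208) by edgeR. All ctrl samples lay above all sham samples, and ctrl day 1 lay just above sham 2. Its level stayed below that of S100a4 in free RNA of the same samples (304 to 1106 CPM). In the same edgeR fit an unadjusted p of 0.00812, for S100a11, gave an adjusted p of 0.0519. A sizable share of all genes in that fit therefore had a low p, and the call is not particular to S100a4. In the Icos/Tnfrsf4 cluster of NK&T-like cells, S100a8 was 7.30, 0 and 0 CPM in sham, 57.1, 39.2 and 9.27 CPM in ctrl, and 83.9, 4.66 and 3.97 CPM in treat, and S100a8 and S100a9 were lower at day 7 than at day 1, with log2 fold changes of -3.75 (SE 0.571, adjusted p = 0.00605) and -3.26 (SE 0.472, adjusted p = 0.00378) by edgeR. S100a9 was also above sham there, at 3.62 (SE 0.737, adjusted p = 0.0253). In the Gzmm/Gzmk cluster of the same class no such call was made by edgeR, with -1.24 (adjusted p = 0.801) for S100a8 and 0.06 (adjusted p = 0.998) for S100a9 between the days and -0.97 (adjusted p = 0.699) for S100a9 against sham. In the Gkn3/Clca5 cluster of BEC-like cells, S100a9 was higher at day 7 than at day 1, at 1.90 (SE 0.470, adjusted p = 0.0102), and in the Ttr/Akr1c15 cluster of that class the value was -1.12 (SE 0.793, adjusted p = 0.504). At day 1 the Gkn3/Clca5 cluster held 1 S100a9 UMI in 27 cells in ctrl and 11 in 50 cells in treat. At day 7 it held 2323 UMIs in 2499 cells in ctrl and 6124 in 4358 cells in treat. These fits of single clusters were chosen after seeing the data, and the share of all genes called in them is not given here. In the Icos/Tnfrsf4 cluster and both BEC-like clusters, S100a8 and S100a9 lay below free RNA of the same sample. In sham 1 of the Gzmm/Gzmk cluster, with 37 cells, both lay above it. S100a8 stood there at 855 CPM against 195 CPM in free RNA, and S100a9 at 1908 CPM against 427 CPM. These levels came from 95 S100a8 and 212 S100a9 UMIs. In the whole class of sham 1, only 2.7% of 111 cells held an S100a8 UMI. In sham 2 and sham 3 of the Gzmm/Gzmk cluster S100a9 was at 0 CPM.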
